A study of Mus musculus with 2 samples.

Results

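Cyp2b10, Cyp4b1, Aox3, Fmo1 and Fmo2 are 5 genes of oxidative xenobiotic metabolism, out of 31053 genes in the count tables. They were followed by single-cell RNA sequencing in mouse lung epithelium after lipopolysaccharide (LPS), a bacterial outer membrane component that injures the lung. Each was found by its Ensembl identifier, and all 5 were present in all 8 libraries' tables. The genes were selected on values of these data, namely their LPS and age changes in alveolar epithelial type II (AE2) cells. Their values in AE2 cells are therefore a description without a test. Ciliated and club cells give the values that the choice did not rest on.

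Cells that take up foreign chemicals, hormones and fatty acids first oxidise them and then couple them to glutathione, sulfate or glucuronic acid for export. Cytochrome P450 enzymes carry out much of the first step with a haem group and electrons from P450 reductase. Flavin-containing monooxygenases oxygenate nitrogen and sulfur atoms, and aldehyde oxidases use a molybdenum cofactor to oxidise aldehydes and nitrogen heterocycles. In the lung, club cells are best known for these enzymes, and AE2 cells, which make surfactant, hold them too.

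The study set old mice (18 months) given LPS or saline beside young mice (3 months) given LPS or saline, all C57BL/6JRj, with LPS at 2.5 mg/kg and lungs taken 24 h later. Saline animals are called control. Airways filled with agarose were cut away during cell isolation, and live cells (DAPI-negative) were sorted for the epithelial surface protein EpCAM. A different hashtag antibody marked the cells of every group before the 4 groups were pooled on a droplet lane. Such a pool was run on 2 lanes, which the labels name as independent replicates, giving 2 libraries per group. How many mice went into each library is not stated, so p-values measure the spread between these libraries only.

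The tables held 14048 barcodes and 85889264 unique molecular identifiers (UMIs), between 6228266 and 15435789 per library. No barcode was shared between libraries of a lane, and 2 were shared between lanes. After filtering, 11232 cells formed 22 clusters, of which 8840 cells were AE2-like, 904 ciliated-like and 177 club/secretory-like by marker genes. In AE2-like cells the surfactant gene Sftpc ranged from 39109 to 254772 CPM (UMIs per 1000000 UMIs of the class). The cilium gene Tppp3 ranged from 2690.1 to 3860 CPM in ciliated-like cells, and the secretoglobin Scgb1a1 from 451533 to 656670.1 CPM in club/secretory-like cells. The latter class was uneven: its markers Scgb3a1 and Bpifa1 ranged from 0 to 40683 and from 0 to 41635 CPM. Of 10 club markers, 0 to 4 were at 0 in its control libraries and 0 to 1 in its LPS libraries. Library old LPS 2 stood apart: 23.2% of its AE2-like cells fell into clusters made up mostly of control cells. That share was 3.38% in old LPS 1, 4.07% in young LPS 1 and 9.43% in young LPS 2. The members' LPS changes in old mice are therefore also given without each of the old LPS libraries.

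The 5 genes lie on 3 chromosomes of GRCm38 (GENCODE M21), and all are protein-coding. Cyp2b10 (ENSMUSG00000030483) spans chromosome 7, 25897620 to 25926624, on the plus strand, with up to 10 exons. Cyp4b1 (ENSMUSG00000028713) spans chromosome 4, 115624725 to 115647723, on the minus strand, with up to 12 exons. Aox3 (ENSMUSG00000064294) spans chromosome 1, 58113130 to 58200698, on the plus strand, with up to 35 exons. Fmo1 (ENSMUSG00000040181), at 162829561 to 162866610, and Fmo2 (ENSMUSG00000040170), at 162874317 to 162898726, are neighbours on the minus strand of chromosome 1. All 5 belong to families with close copies, so the transcript ends read by the 3′ assay were compared with all other transcripts. None of 411 windows of 90 bases in the last 500 bases of each gene's longest coding transcript was identical to another gene.

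RefSeq promoter windows (GRCm38.p6) were available for Cyp2b10, Cyp4b1, Aox3 and Fmo2. The first 3 are shown because Cyp2b10 and Cyp4b1 had higher levels after LPS and Aox3 a lower one. Each sequence is the 250 bases before the RefSeq start, 5′ to 3′ on the gene's strand: Cyp2b10 at chr7:25897408-25897657 (plus), Cyp4b1 at chr4:115647722-115647971 (minus) and Aox3 at chr1:58112886-58113135 (plus). Capitals mark the core of the xenobiotic response element, GCGTG, on either strand.
Cyp2b10: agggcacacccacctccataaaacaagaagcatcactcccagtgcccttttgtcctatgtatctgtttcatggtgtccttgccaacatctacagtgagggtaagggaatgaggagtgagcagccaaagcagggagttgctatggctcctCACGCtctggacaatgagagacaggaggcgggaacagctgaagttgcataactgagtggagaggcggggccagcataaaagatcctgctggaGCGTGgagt
Cyp4b1: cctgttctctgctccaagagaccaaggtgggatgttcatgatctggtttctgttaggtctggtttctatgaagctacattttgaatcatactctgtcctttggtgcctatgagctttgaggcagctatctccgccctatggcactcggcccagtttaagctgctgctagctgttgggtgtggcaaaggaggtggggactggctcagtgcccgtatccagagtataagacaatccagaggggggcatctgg
Aox3: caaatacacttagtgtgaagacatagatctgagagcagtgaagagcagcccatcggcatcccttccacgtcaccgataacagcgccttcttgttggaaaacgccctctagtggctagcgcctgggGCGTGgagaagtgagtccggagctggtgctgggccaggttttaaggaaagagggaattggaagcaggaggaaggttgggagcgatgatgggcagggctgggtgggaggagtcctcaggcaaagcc

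The window of Cyp2b10 held GCGTG at 2 places, that of Aox3 at 1 and that of Cyp4b1 at none, and 28.2% of 32851 windows in the table held it on either strand. None of the 3 windows held the nuclear receptor half-site AGGTCA (14.02% of windows), the TATA box TATAAA (12.4%) or the interferon-stimulated response element (2.98%). Fmo2 has 2 RefSeq starts. The window before one of them held AGGTCA at 1 place, and the other held none of the 4 motifs. A match describes letters in the window and not a bound site, and the motifs do not overlap in these windows.

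Cyp2b10 encodes a cytochrome P450 known in mouse liver as a target of the nuclear receptor CAR. In AE2-like cells, its level scaled with trimmed mean of M-values (TMM) was 122 and 169.9 CPM in old LPS libraries 1 and 2, against 81.0 and 70.0 CPM in old control libraries. It was 161 and 172 CPM in young LPS libraries, against 40.6 and 36.3 CPM in young control libraries. Every LPS library lay above every control library, and the old control libraries lay above the young ones, while the LPS libraries of both ages overlapped. Means were 146 ± 33.8 CPM in old LPS, 75.5 ± 7.77 in old control, 167 ± 7.77 in young LPS and 38.5 ± 3.04 in young control (SD, n = 2 each). The log2 fold change after LPS was 0.95 ± 0.14 (SE) in old mice and 2.13 ± 0.15 in young mice. In old mice it was 0.70 without old LPS 2 and 1.18 without old LPS 1. Old control stood above young control by 0.98 ± 0.16, within lanes by 1.00 and 0.95.

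Cyp4b1, a P450 prominent in lung that hydroxylates fatty acids and activates several lung toxicants in rodents, had the same order of groups at a lower count. It reached 19.4 and 21.4 CPM in old LPS libraries, against 9.25 and 9.29 CPM in old control libraries. In young mice it reached 22.2 and 25.5 CPM after LPS, against 4.38 and 6.41 CPM in control libraries, which rested on 18 and 48 UMIs. LPS and control libraries did not overlap at either age, and neither did old and young control libraries. LPS libraries of the 2 ages did not overlap either, with the old ones lower. The log2 fold change after LPS was 1.14 ± 0.16 in old and 2.08 ± 0.19 in young mice. In old mice it was 1.07 without old LPS 2 and 1.21 without old LPS 1. Old control differed from young control by 0.72 ± 0.22, and old LPS from young LPS by -0.23 ± 0.14.

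Aox3, an aldehyde oxidase, was the one member with lower levels after LPS. It fell to 41.5 and 86.6 CPM in old LPS libraries, against 229.9 and 207 CPM in old control libraries. In young mice it was at 68.4 and 61.8 CPM after LPS, against 197 and 169 CPM in control libraries. No LPS library reached a control library. The 2 old LPS libraries differed from each other by more than the young LPS libraries did, and enclosed them. Log2 fold changes were -1.76 ± 0.36 in old and -1.49 ± 0.37 in young mice. In old mice the change was -2.39 without old LPS 2 and -1.33 without old LPS 1. Old and young control libraries did not overlap, and their difference of 0.26 ± 0.35 was smaller than its error. Old LPS against young LPS had opposite signs in the 2 lanes (-0.72 and 0.49).

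Fmo2, the flavin-containing monooxygenase best known from lung, was at 28.8 and 62.3 CPM in old LPS libraries, against 33.8 and 23.5 CPM in old control libraries, and these groups overlapped. In young mice it was at 31.2 and 25.02 CPM after LPS, against 7.29 and 7.08 CPM in control libraries, which did not overlap. Old control libraries held 28.7 ± 7.34 CPM, against 7.18 ± 0.155 CPM in young control libraries (SD, n = 2 each), and within lanes the old library was higher by 2.21 and 1.73 on the log2 scale. The log2 fold change after LPS was 0.69 ± 0.44 in old mice and 1.97 ± 0.60 in young mice. In old mice it was 0.03 without old LPS 2 and 1.14 without old LPS 1, so that the old LPS value rests on which library is used.

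Fmo1, a related monooxygenase, was near the detection limit in AE2-like cells. It had 24 and 25 UMIs in old LPS libraries, against 2 and 4 in old control libraries, and 17 and 10 UMIs in young LPS libraries, against 3 and 0 in young control libraries. Per UMI sequenced, the pooled ratio of LPS over control was 4.78 (95% exact interval 2.04 to 13.6) in old and 6.23 (1.92 to 32.1) in young mice. These intervals cover counting error only. The fitted log2 change in old mice was 2.27, with 2.35 without old LPS 2 and 2.20 without old LPS 1. The groups did not overlap at either age, and old and young libraries overlapped within each treatment.

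**Figure D1:**
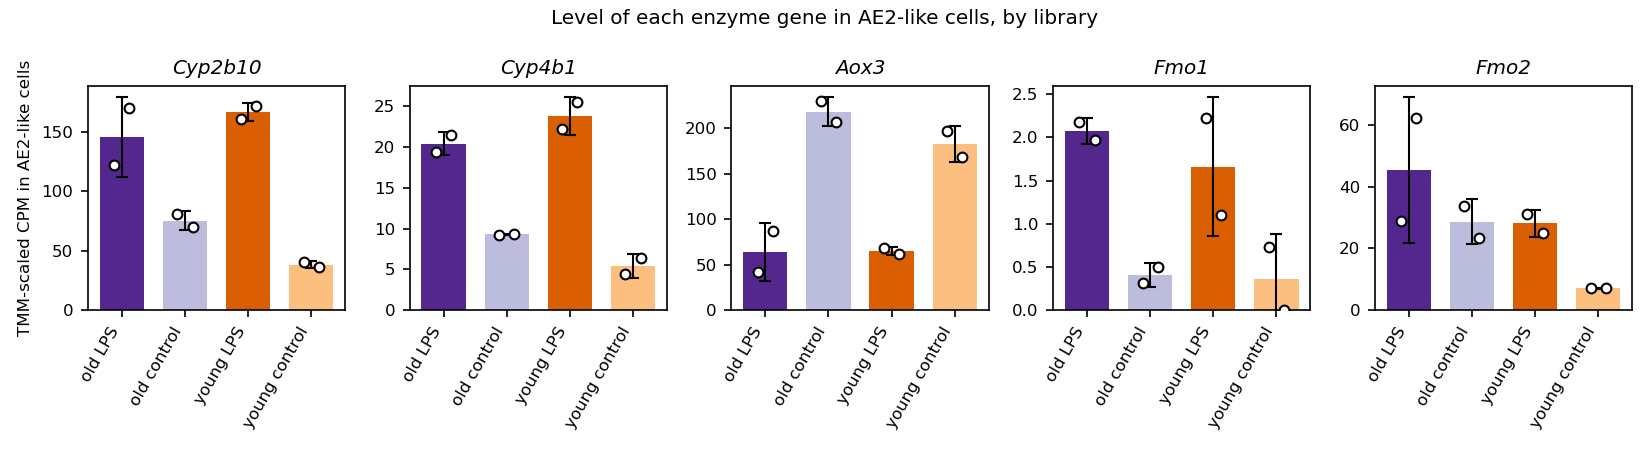
TMM-scaled CPM of the 5 genes in AE2-like cells (vertical axis, own scale per gene) for old LPS, old control, young LPS and young control. Bars are means of 2 libraries, lines are SD and points are libraries 1 (left) and 2 (right). Cyp2b10, Cyp4b1 and Fmo1 stood higher and Aox3 lower in all LPS libraries than in the control libraries of the same age, and the old LPS points of Fmo2 lie at 28.8 and 62.3 CPM.

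In edgeR's quasi-likelihood fit over all 11376 genes tested in AE2-like cells, 3 members were called higher and 1 lower after LPS at each age (adjusted p under 0.05). These counts restate values that were known when the genes were chosen, and nothing is read from them. In that fit 25.1% of all genes were called higher and 23.3% lower in old mice, and 21.9% higher and 18.4% lower in young mice. Of old against young control, 1 member, Cyp2b10, was called higher, where 0.255% of all genes were called higher and 0.369% lower. DESeq2 also called Fmo2 higher in that comparison (1.98, adjusted p = 0.0148 in DESeq2). Of old LPS against young LPS, 0 members were called by edgeR or DESeq2, and 0 had an unadjusted p under 0.05, beside 1.62% of genes called higher and 2.42% lower. The LPS change was smaller in old than in young mice for 1 called member, Cyp2b10, by 1.17 ± 0.21 on the log2 scale, where 0.325% of genes were called higher and 0.325% lower. The same difference for Cyp4b1 was -0.94 ± 0.26 and was not called. For Cyp4b1 it was called with no low-count filter (-0.93, adjusted p = 0.0323 in edgeR) and without old LPS 2 (-1.01). Its values ran from -1.30 to -0.74 over all single libraries left out. The call of Cyp2b10 for age in control mice was lost without young control 1, young control 2 or old control 1, with values of 0.87 to 1.07 over all single libraries left out. The call for the difference between the LPS changes was lost without any of these 3 libraries or either young LPS library, with values of -1.43 to -0.96.

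Across the 8 AE2-like sums, Cyp2b10 and Cyp4b1 ran closely together (Pearson r = 0.97 of log2(CPM + 1)), whereas Aox3 ran against both (-0.76 and -0.84). Fmo2 followed Cyp2b10 with r = 0.86 and Aox3 with -0.44. Among 4574 genes with a mean of at least 20 CPM, the genes most like Cyp2b10 were the class I MHC gene H2-Q6 (r = 0.99), the copper chaperone Atox1 (0.99) and the adaptor subunit Ap3s1 (0.99). Those most like Cyp4b1 were Wfdc21, Cog7 and Atp5l (0.99 each). Aox3 was followed most closely by the collagen prolyl hydroxylase P4ha1 (1.00), Plekhb1 (0.99) and the ribonuclease Rnase4 (0.99). Fmo1 ran with Gnpnat1 (0.98), Tbc1d15 (0.97) and Exoc3 (0.97), and Fmo2 with Rsl24d1 (0.94), Mrpl48 (0.93) and Sec23ip (0.92). All 8 points share their group structure, so these values are a description over libraries.

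Detection in single cells followed the same directions. With each cell thinned to 2000 UMIs, Cyp2b10 was seen in 17.4% to 28.1% of AE2-like cells in LPS libraries, against 7.04% to 16.2% in control libraries. The shares without thinning were 45.8% to 55.5% in LPS libraries, at median depths of 7602 to 9082 UMIs per cell, and 18.3% to 35.6% in control libraries, at 5722 to 7092 UMIs. Thinned shares of Cyp4b1 were 3.402% to 5.27% in LPS and 0.691% to 1.95% in control libraries, and those of Aox3 were 7.44% to 16.8% in LPS and 26.1% to 35.9% in control libraries. Fmo2 was seen in 4.88% to 11.2% of cells in LPS and 1.10% to 5.92% in control libraries, with overlap between treatments. Fmo1 was seen in 18 of 4760 thinned cells of LPS libraries, against 1 of 3980 of control libraries. Thinning left out 51 cells of LPS and 49 of control libraries. In alveolar macrophage-like cells, which serve as a measure of RNA free in the suspension, none of 72 thinned cells of LPS libraries held a UMI of any member. Of 429 such cells of control libraries, 4 held Cyp2b10, 1 Cyp4b1, 7 Aox3, 2 Fmo2 and 0 Fmo1. Those macrophage-like cells had median depths of 6119 to 9265 UMIs in LPS libraries and 3901 to 5550.0 UMIs in control libraries.

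AE2-like cells were not uniform. The AE2-like clusters that hold mostly control cells took up 94.1% to 96.3% of the AE2-like cells of control libraries. LPS cells inside these clusters had more Cyp2b10 than the other AE2-like cells: 441 and 485 CPM in old LPS libraries 1 and 2 and 407 and 472 CPM in young LPS libraries, against 36.1 to 85.1 CPM in control cells of the same clusters. Outside these clusters, LPS cells of a library together held 106 to 153 CPM, and single clusters differed widely. A further AE2-like cluster, with Cyp2b10 among its top genes and 435 LPS cells, held 343 to 374 CPM over 3 LPS libraries. An outside cluster led by the chemokine gene Cxcl10 held 47.5 to 66.6 CPM over 3 LPS libraries, and one led by the cytokine gene Csf3 held 26.9 to 49.9 CPM over 2. Fmo2 was at 132 to 217 CPM in the inside LPS cells, against 7.51 to 35.5 CPM in the inside control cells, and at 17.4 to 30.9 CPM in LPS cells outside. Cyp4b1 was at 32.1 to 72.3 CPM in the inside LPS cells, against 4.50 to 9.80 CPM in the inside control cells. For Aox3 the inside LPS cells, at 216 to 313 CPM, lay in and above the control range of 174 to 241 CPM, and the LPS cells outside were low at 36.7 to 61.7 CPM.

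These inside LPS cells numbered 43 and 329 in old LPS libraries 1 and 2, and 41 and 105 in young LPS libraries. Outside the clusters the old LPS libraries lay close together, with Aox3 at 36.7 and 40.8 CPM and Fmo2 at 24.4 and 30.9 CPM. The inside LPS cells also kept Sftpc at 197692 to 208753 CPM, against 34411 to 44185 CPM in LPS cells outside, and Scgb1a1 was at 2363 to 5643 CPM inside, against 582 to 1548 CPM outside. Their median depth was 5459 to 6336 UMIs per cell, against 7670.0 to 9946 outside. The clusters were built from all variable genes, with Aox3 first among the top genes of one of them and Cyp2b10 among those of an outside cluster, so these contrasts describe the clusters and are no test. The part of Scgb1a1 or depth in them was not tested.

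**Figure D2:**
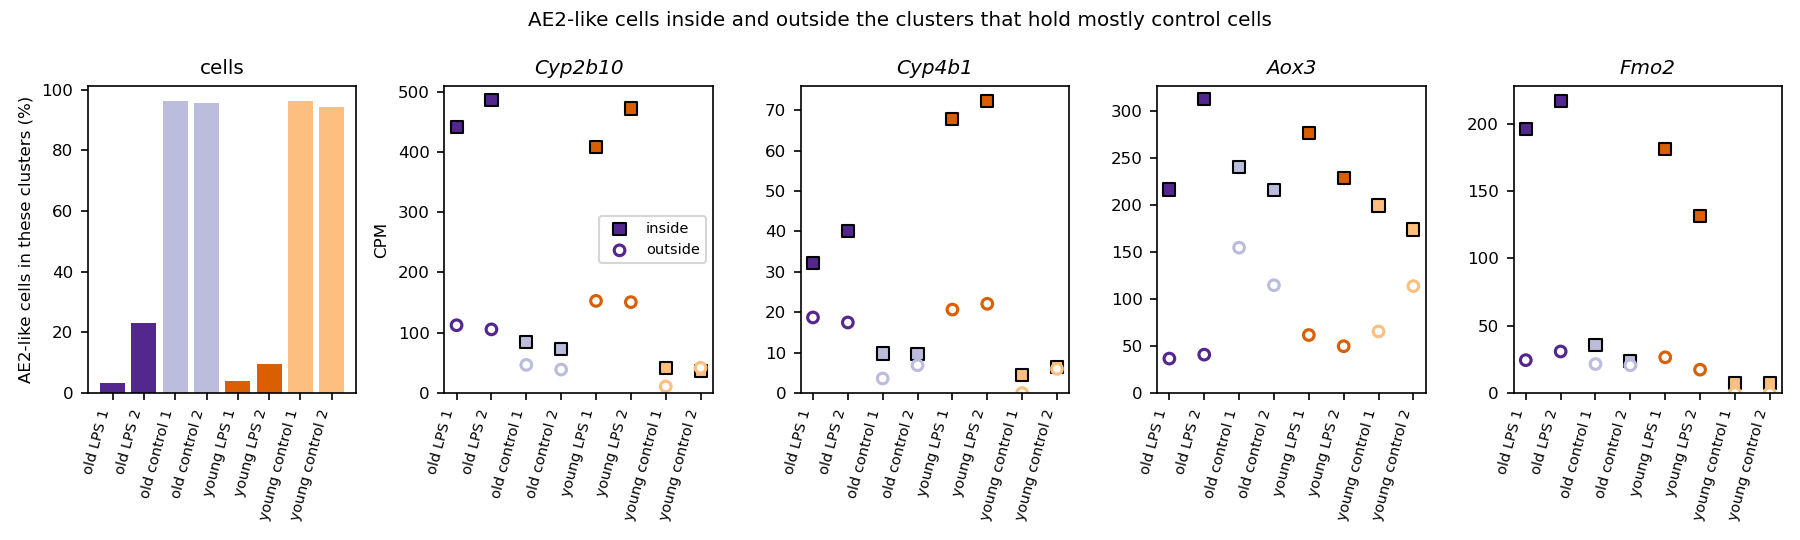
Left: percent of AE2-like cells of each library in the clusters that hold mostly control cells. Other panels: CPM (vertical axis, own scale per gene) of 4 genes in AE2-like cells inside (filled squares) and outside (open circles) these clusters, for 2 libraries each of old LPS, old control, young LPS and young control. The inside LPS squares of Cyp2b10 and Fmo2 lie above all other points, and Aox3 in LPS cells outside lies at 36.7 to 61.7 CPM, below every other point.

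Set against other cell classes without library scaling, no member was highest in AE2-like cells alone. Without library scaling, Cyp2b10 was highest in ciliated-like cells at 193 to 359.5 CPM over the 8 libraries, then in AE2-like cells at 36.5 to 172 CPM and in club/secretory-like cells at 7.59 to 52.6 CPM. On this scale the ciliated-like range did not overlap the AE2-like range, and the AE2-like and club/secretory-like ranges overlapped. In the joint fit of AE2-like and ciliated-like cells below, TMM factors were 0.74 to 0.80 for AE2-like and 1.24 to 1.36 for ciliated-like sums. Such factors raise AE2-like and lower ciliated-like levels, so the order and overlap of Cyp2b10 in these classes depend on the scaling. Cyp4b1 was at 311 to 452 CPM in ciliated-like, 38.7 to 253 CPM in club/secretory-like and 4.31 to 25.4 CPM in AE2-like cells, with no overlap between the classes. Fmo2 was highest in club/secretory-like cells at 80.6 to 418 CPM, followed by AE2-like cells at 7.12 to 61.8 CPM and ciliated-like cells at 0 to 14.8 CPM. Fmo1 was at 0 to 30.4 CPM in club/secretory-like cells, where it rested on 32 UMIs, against 0 to 11.1 CPM in ciliated-like and 0 to 2.21 CPM in AE2-like cells. Aox3 was at 40.7 to 237 CPM in AE2-like and 44.8 to 379 CPM in club/secretory-like cells, which overlapped, and at 0 to 12.4 CPM in ciliated-like cells. The label AE2 enzymes therefore names the cells whose LPS and age values led to the choice of genes, and not where the unscaled levels were highest. These class levels are a description with no test.

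**Figure D3:**
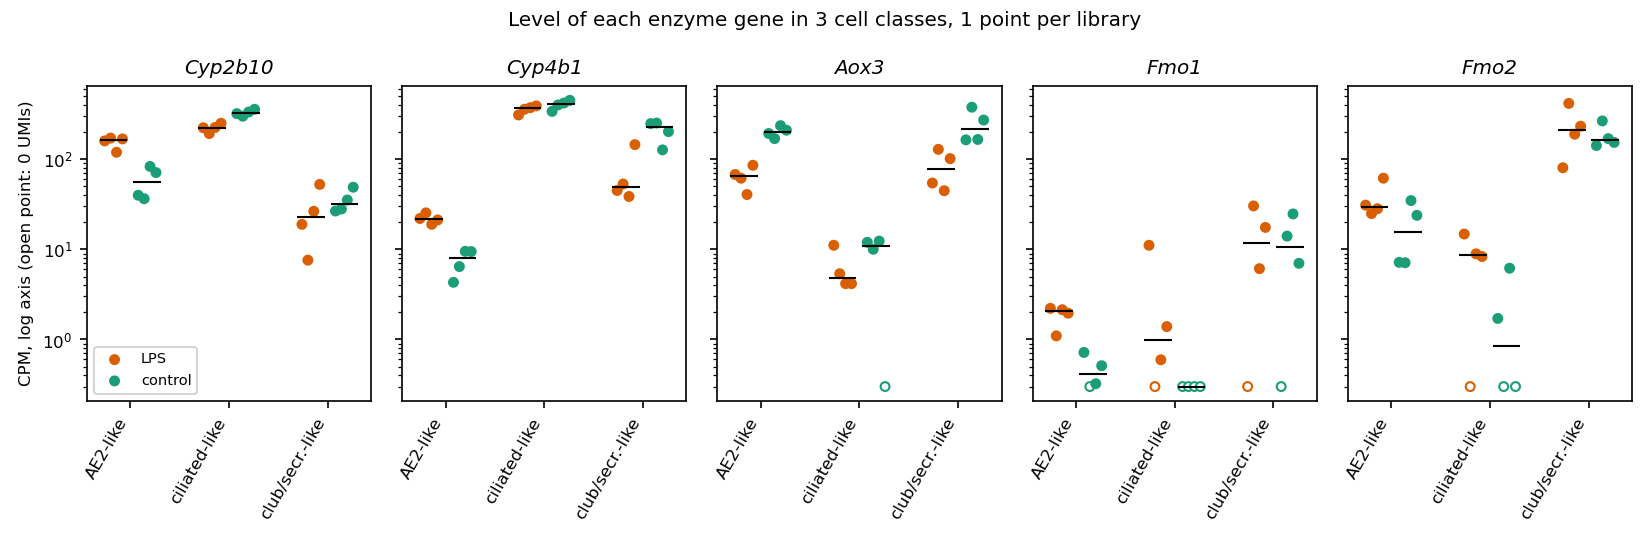
CPM without library scaling on a log axis for the 5 genes in AE2-like, ciliated-like and club/secretory-like cells. Each point is 1 library, with LPS left of control, open points have 0 UMIs and lines are medians. On this unscaled axis Cyp2b10 and Cyp4b1 stand highest in ciliated-like cells, and Fmo2 in club/secretory-like cells.

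Ratios to marker genes measure how far free RNA of another class could reach. In ciliated-like cells Aox3 stood at a median of 6.05% of its AE2-like level in the same library, beside 4.82% for Sftpc. In AE2-like cells Fmo2 had 3.75 to 49.0 UMIs per 1000 UMIs of Scgb1a1, against 0.169 to 0.925 in club/secretory-like cells. Likewise Cyp4b1 had 137 to 5646 UMIs per 1000 of Tppp3 in AE2-like cells, against 106 to 123 in ciliated-like cells, and Cyp2b10 had 809.5 to 44854 in AE2-like cells, against 60.9 to 99.8 in ciliated-like cells. The low end of Cyp4b1 is thus close to the ciliated ratio. It is that of young control libraries 1 and 2, at 137 and 143, against 106 and 122 in their ciliated-like cells. Old control libraries had 366 and 307, and LPS libraries 3596 to 5646. The young control level enters the young LPS change, the age difference in control mice and the difference by age of Cyp4b1. The part of free ciliated RNA in that level was not tested. The summed ciliated markers in AE2-like cells were at 30.7 to 47.0 CPM in LPS libraries, against 130.4 to 139 CPM in control libraries, with 0 of 10 markers at 0 in LPS libraries and at most 1 in control libraries. The part of these markers in the members' LPS changes was not tested. The club marker list, which includes the acute-phase gene Hp, summed to 12476 to 15598 CPM in LPS libraries, against 3136 to 6123 CPM in control libraries, with 0 to 2 of 10 markers at 0. Scgb1a1 alone was lower after LPS, at 1848 ± 561 CPM in old LPS against 4357 ± 513 in old control, and 752 ± 162 in young LPS against 1813 ± 186 in young control (SD, n = 2 each).

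In ciliated-like cells the direction of Cyp2b10 was the opposite of that in AE2-like cells. It was at 233 and 259 CPM in old LPS libraries, against 317 and 346 CPM in old control libraries, and at 233 and 197 CPM in young LPS libraries, against 318 and 298 CPM in young control libraries. No LPS library reached a control library. Cyp2b10 fell by 0.47 ± 0.11 on the log2 scale over both ages (adjusted p = 0.00175 in edgeR; 0.0546 in DESeq2). Within lanes the ratio was -0.45 and -0.42 in old and -0.44 and -0.60 in young mice. Cyp4b1 was at 385 and 403 CPM in old LPS libraries, against 399 and 435 CPM in old control libraries, and at 324 and 366 CPM in young LPS libraries, against 336 and 397 CPM in young control libraries. Its LPS difference of -0.08 ± 0.10 was not called (adjusted p = 0.675 in edgeR). The other 3 members had too few UMIs in ciliated-like cells to be tested. Of the 2 tested, 0 were called higher and 1 lower, beside 9.61% and 7.71% of all 7907 genes tested. Age gave no call in edgeR or DESeq2, with 0 of 2 members at an unadjusted p under 0.05: old against young differed by 0.13 ± 0.11 for Cyp2b10 (adjusted p = 0.835 in edgeR) and by 0.19 ± 0.10 for Cyp4b1 (adjusted p = 0.643 in edgeR). Of all genes, 0.392% were called higher and 0.228% lower by age.

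In a joint edgeR fit of both classes, the LPS change in AE2-like cells minus that in ciliated-like cells was 1.81 ± 0.23 on the log2 scale for Cyp2b10 and 1.53 ± 0.18 for Cyp4b1. It was -1.15 ± 0.49 for Aox3 and -0.91 ± 0.67 for Fmo2, and Fmo1 was not tested. The AE2-like side of these differences was known when the genes were chosen, and for Cyp4b1 it makes up nearly the whole value, so they are given as a description. Of 4 members in the fit, 2 were called higher and 0 lower, with 2 higher and 1 lower at an unadjusted p under 0.05 and 2 higher and 0 lower in DESeq2. In edgeR 6.32% of 11568 genes were called higher and 8.07% lower. Nothing is read from that count.

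**Figure D4:**
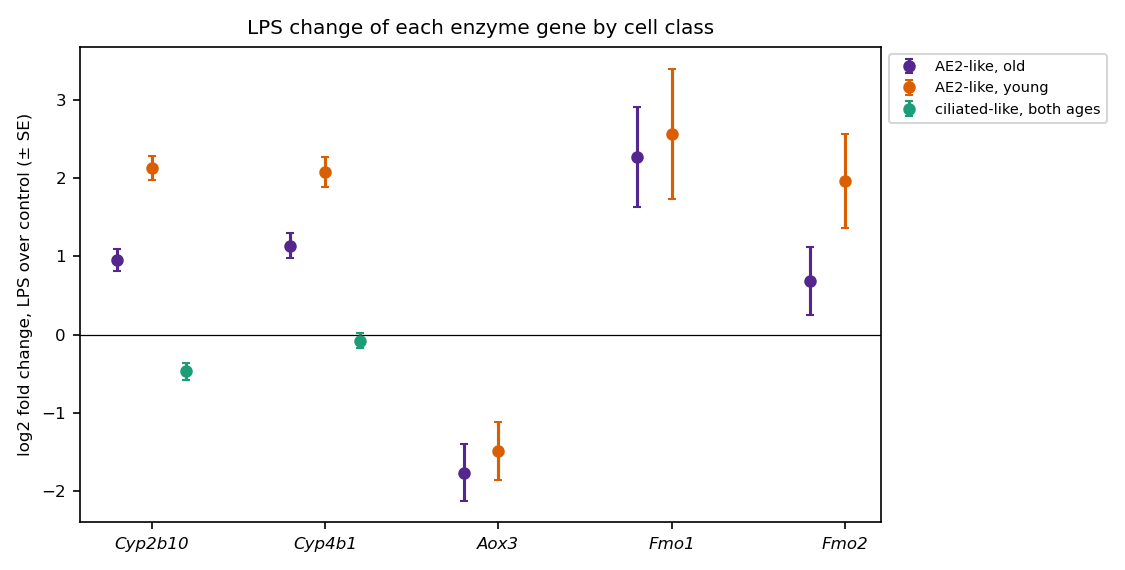
Log2 fold change of LPS over control (vertical axis, points with SE) for the 5 genes in AE2-like cells of old and young mice and in ciliated-like cells over both ages, where 2 genes were tested. Cyp2b10 and Cyp4b1 lie above 0 in AE2-like cells, while in ciliated-like cells they lie at -0.47 and -0.08.

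Club/secretory-like cells were few, their levels are given without library scaling, and 5 libraries had the 10 cells needed for the fit, which left 1 residual degree of freedom. Aox3 was at 44.8 and 102 CPM in old LPS libraries, against 166 and 273 CPM in old control libraries, and at 54.5 and 129 CPM in young LPS libraries, against 165 and 379 CPM in young control libraries. All LPS values lay below all control values. Its log2 change of -1.46 ± 0.39 was called in edgeR (adjusted p = 0.0451) and not in DESeq2 (adjusted p = 0.817). Cyp4b1 was at 38.7 and 146 CPM in old LPS libraries, against 127 and 203 CPM in old control libraries, and at 45.1 and 53.2 CPM in young LPS libraries, against 249 and 253 CPM in young control libraries. Only the young groups did not overlap, and its change of -1.55 ± 1.19 was not called in edgeR with the main settings. It was called lower with no low-count filter (-1.37) and with the 3% of highest doublet scores left out (-1.55). The call thus depends on the setting in this small fit. Fmo2 was at 190.1 and 233 CPM in old LPS libraries, against 169.8 and 154 CPM in old control libraries. In young LPS libraries it was at 80.6 and 418 CPM, against 142 and 267 CPM in young control libraries. These values had no common direction. Cyp2b10 had a log2 change of -0.25 ± 0.51 and was not called. Fmo1 had an SE of 955, so its change could not be estimated. Of the 5 members, 0 were called higher and 1 lower after LPS, beside 6.75% and 2.63% of 3303 genes. By age 0 were called in edgeR or DESeq2, with 2 at an unadjusted p under 0.05, beside 0.0606% of genes called higher and 0.0303% lower.

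Several close relatives of the members were scarce in AE2-like cells. The sums held 2 UMIs of Cyp2b9 and 0 of Cyp2b13, Cyp2b19 and Cyp2b23, and 0 UMIs of Aox2 and 14 of Aox4. Aox1, the closest relative of Aox3 with a sizeable count (768 UMIs), differed after LPS by -0.03 ± 0.17 in old mice (adjusted p = 0.896 in edgeR) and fell by 0.50 ± 0.19 in young mice (adjusted p = 0.0436 in edgeR). Fmo5 fell by 1.17 ± 0.20 in old and by 0.71 ± 0.22 in young mice, against the direction of Fmo1 and Fmo2. Fmo4, with 142 UMIs, was called higher in young mice (1.50 ± 0.46), at 2.14 without young control 1 and, with the call lost, at 0.82 without young control 2 and 1.32 without young LPS 1. Aox1 in young mice lost its call without young LPS 1 or any single control library, and Fmo5 in young mice without young control 2 or young LPS 2.

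Other genes of xenobiotic metabolism were followed in 10 lists of 232 genes without the members, of which 231 were in the tables and 123 were tested in AE2-like cells. After LPS 31 (25.2%) were called higher and 37 (30.1%) lower in old mice, beside 25.1% and 23.3% of all genes tested. In young mice 33 (26.8%) were called higher and 32 (26.02%) lower, beside 21.9% and 18.4% of all genes. The counts of single lists below are to be read against the same shares. The median log2 change over the lists was 0.07 in old and 0.08 in young mice, beside -0.01 and -0.01 over all genes tested. The lists were chosen with earlier results of these data known, so their counts are a description. Lists were not tested against each other.

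Of 10 other P450 genes tested in families 1 to 4, 0 were called higher and 3 lower in old mice by edgeR, with 1 and 3 at an unadjusted p under 0.05 and 0 and 2 in DESeq2. In young mice 2 were called higher and 2 lower. Cyp2f2, the P450 typical of mouse club cells, fell by 1.73 ± 0.22 in old and by 1.75 ± 0.25 in young mice. It is on the club marker list, had a mean of 43.5 CPM in AE2-like cells, and changed by -1.93 ± 0.74 in club/secretory-like cells (not called). Free RNA was not removed, and its part in the fall of Cyp2f2 was not tested. Electron donors and haem synthesis had 5 of 16 genes called higher and 2 lower at each age. The haem synthesis enzymes Alas1, which catalyses the first step, Urod and Cpox rose at both ages. Alas1 rose by 0.76 ± 0.09 in old and 0.69 ± 0.10 in young mice, and Cpox by 0.90 ± 0.12 and 0.85 ± 0.13. Por, the P450 reductase, was singled out after its values were seen: it rose by 0.36 ± 0.09 in old and by 0.45 ± 0.09 in young AE2-like cells (in old mice the call was lost without old control 2) and fell by 0.92 ± 0.14 in ciliated-like cells (adjusted p = 5.34e-06 in edgeR). The difference of these LPS changes was 1.22 ± 0.16 (adjusted p = 7.02e-08 in edgeR).

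Among the other molybdenum enzymes and cofactor genes, 2 of 9 were called higher and 1 lower in old mice, and 4 higher and 1 lower in young mice. Xanthine dehydrogenase, Xdh, which shares its cofactor with Aox3, was at 205 and 165 CPM in old LPS libraries, against 40.4 and 37.8 CPM in old control libraries, and at 176 and 167 CPM in young LPS libraries, against 37.7 and 38.3 CPM in young control libraries. It thus rose by 2.24 ± 0.11 in old and by 2.17 ± 0.12 in young mice, opposite to Aox3. The cofactor synthesis gene Mocs2 rose by 0.93 ± 0.14 in old and by 0.89 ± 0.15 in young mice.

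Among aldehyde, alcohol and carbonyl enzymes, 8 of 24 were called higher and 7 lower in old mice, and 5 higher and 7 lower in young mice. The aldo-keto reductase Akr1b8 rose by 1.95 ± 0.18 in old and by 1.77 ± 0.19 in young mice, whereas the carbonyl reductase Cbr2 fell by 1.61 ± 0.37 and 1.38 ± 0.37 and the aldehyde dehydrogenase Aldh1a7 fell by 1.48 ± 0.13 and 1.14 ± 0.13. Of 7 epoxide hydrolases, esterases and paraoxonases tested, 1 was called higher and 6 lower in old mice, and 1 higher and 4 lower in young mice. Paraoxonase Pon1 fell by 2.29 ± 0.35 in old and by 2.42 ± 0.36 in young mice, and the esterase Esd rose by 0.97 ± 0.16 and 0.59 ± 0.16. Cbr2 was at -2.25 in old mice without old LPS 2 and lost its call in old mice without either old control library, and in young mice without any single young library or either old control library. Pon1 was at -3.07 in young mice without young LPS 2, and Esd lost its call in young mice without young LPS 1 or either young control library. Of 18 glutathione transferases, 4 were called higher and 6 lower in old mice, and 5 higher and 6 lower in young mice. Gstm1 had log2 changes of -1.73 ± 0.15 in old and -1.54 ± 0.16 in young mice, and Mgst3 rose by 1.22 ± 0.12 and 1.06 ± 0.12.

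Of 9 other conjugating transferases, 1 was called higher in old and 2 in young mice, and 0 were called lower at either age in edgeR or DESeq2, with 0 lower at an unadjusted p under 0.05. The sulfotransferase Sult1a1 rose by 1.55 ± 0.12 in old and by 1.66 ± 0.12 in young mice. Of 10 transporters, 4 were called higher and 3 lower in old mice, and 3 higher and 1 lower in young mice. The prostaglandin transporter Slco2a1 rose by 1.20 ± 0.11 in old and by 0.65 ± 0.11 in young mice, and the efflux pump Abcc3 by 0.63 ± 0.15 and 0.60 ± 0.16, with the young value not called without young control 2. Of 18 receptors and transcription factors, 6 were called higher and 8 lower in old mice, and 5 higher and 8 lower in young mice. The most abundant of these were Cebpa, Nfe2l2, Ncor1 and Cebpb. Cebpa fell by 1.36 ± 0.17 in old and by 1.28 ± 0.17 in young mice, while Cebpb rose by 1.27 ± 0.12 and 0.90 ± 0.12. The glucocorticoid receptor gene Nr3c1 fell at both ages (-0.58 ± 0.10 in old and -0.66 ± 0.11 in young mice), and Tiparp, a target and repressor of the aryl hydrocarbon receptor, rose by 1.15 ± 0.11 in old and 0.95 ± 0.11 in young mice.

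**Figure D5:**
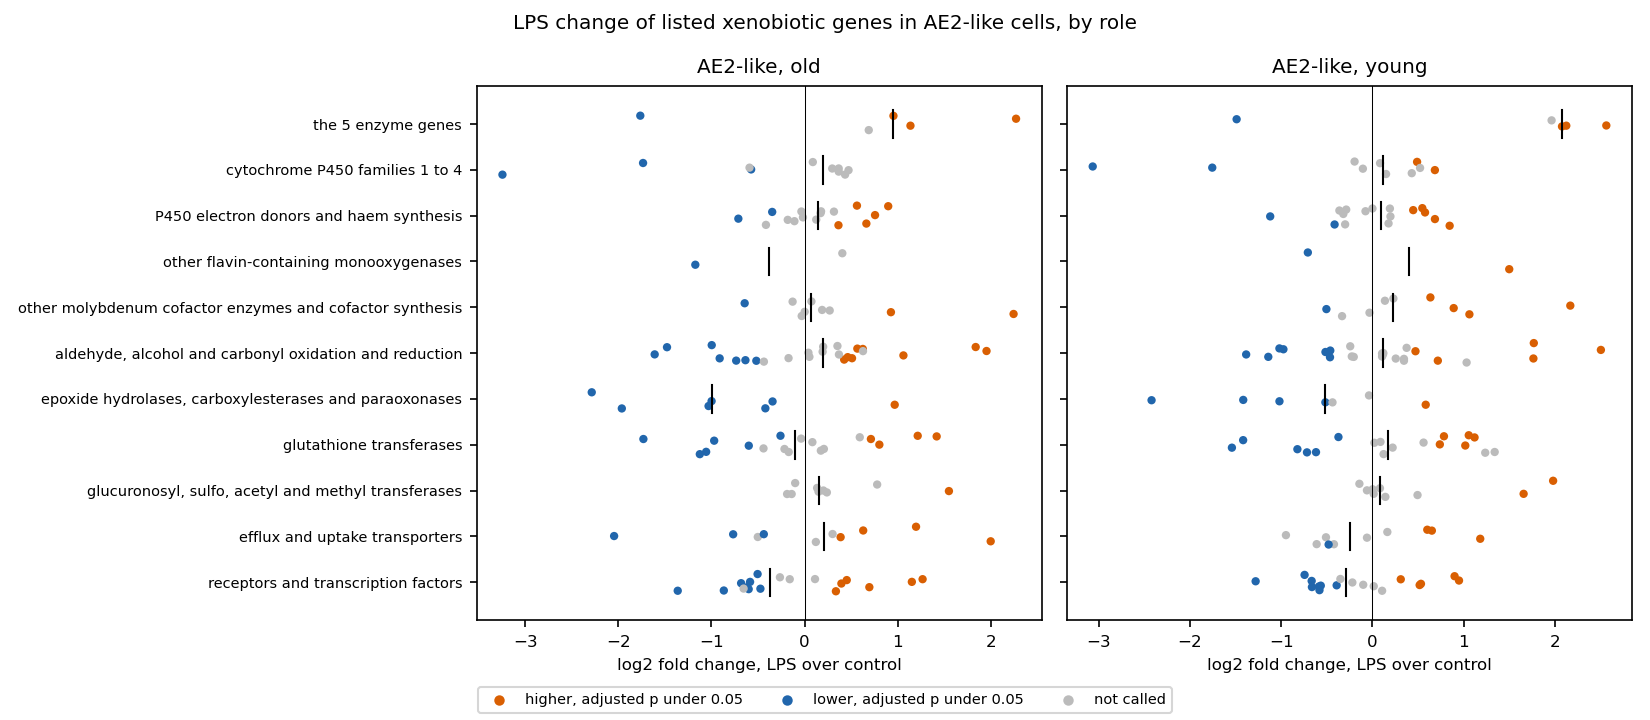
Log2 fold change of LPS over control (horizontal axis) in AE2-like cells of old (left) and young (right) mice for the 5 genes and 10 lists by role. Each point is a gene, coloured by its call in edgeR, and black lines are medians. Hydrolases lie mostly below 0, with a median of -0.998 in old and -0.514 in young mice.

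Of old against young control mice, 1 of 123 listed genes (0.813%) was called higher, the glutathione transferase Mgst2 (0.89), and 0 lower in edgeR, beside 0.255% and 0.369% of all genes, with 8 and 6 at an unadjusted p under 0.05 and 0 and 0 in DESeq2. Of old against young LPS mice, 7 (5.69%) were called higher and 2 (1.63%) lower in edgeR, beside 1.62% and 2.42% of all genes, against 0 and 1 in DESeq2. With single libraries left out, these counts ran from 1 to 15 higher and from 0 to 17 lower. With all libraries, the called genes included the transporters Slco3a1 (0.57 ± 0.13) and Slco2a1 (0.45 ± 0.11), the oxidative stress factor Nfe2l2 (0.37 ± 0.09) and, as lower, Gphn of cofactor synthesis (-0.44 ± 0.12). Slco2a1, Nfe2l2 and Gphn each lost the call on leaving out any single library other than old LPS 2, Slco3a1 on leaving out young control 1, young LPS 2 or old control 2, and Mgst2 lost its call in control mice on leaving out any single control library. The LPS change itself differed by age for 0 listed genes in edgeR and DESeq2, with 7 higher and 11 lower at an unadjusted p under 0.05. In ciliated-like cells, 15 of 95 listed genes were called higher and 19 lower after LPS, beside 9.61% and 7.71% of all genes. By age 2 were called higher and 0 lower, beside 0.392% and 0.228% of all genes. At an unadjusted p under 0.05 the counts by age were 6 and 7, and in DESeq2 they were 1 and 0. In club/secretory-like cells, 5 of 71 were called higher and 20 lower after LPS in edgeR, against 1 and 7 in DESeq2, with a median of -0.61, beside 0.04 over all genes tested. By age 0 of 71 were called in edgeR or DESeq2, with 3 higher and 2 lower at an unadjusted p under 0.05. The counts in club/secretory-like cells are to be read against the shares of all genes given for that class above. The LPS change was larger in AE2-like than in ciliated-like cells for 14 of 132 listed genes and smaller for 19, beside 6.32% and 8.07% of all genes.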

How the data were processed

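The authors deposited unnormalized UMI counts of genes in single barcodes, with a table for every group on each lane. Build mm10, Seurat 3.1 and 3.1.5, Cell Ranger 3.1.0, bcl2fastq, R 3.6.3 and STAR are named in the submitters' processing notes. How barcodes were assigned to hashtags is not given in the sources used here.

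The 5 genes and the 10 lists were chosen with earlier results of these data known. Barcodes with under 500 genes or over 20% mitochondrial UMIs were removed (2803). Scrublet marked 13 cells (0.116%), too few to count as working, so leaving out the 3% of highest doublet scores was an alternative. Cells were clustered in scanpy 1.11.5 (2000 variable genes, 30 components, leidenalg 0.10.2, resolution 1) and named by marker lists. Free RNA was not removed.

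UMIs were summed per library and class (at least 10 cells), filtered with filterByExpr, scaled with TMM and tested in edgeR 4.0.16 (robust quasi-likelihood, R 4.3.3), with Benjamini-Hochberg adjustment over all genes tested and a threshold of 0.05. SEs are approximate: log2 fold changes divided by the root of F, without sign. The fits used group as the factor in every class. In ciliated-like and club/secretory-like cells the LPS contrast was averaged over both ages and the age contrast over both treatments. The joint fit of AE2-like and ciliated-like cells used library as a block. The procedure was tested on simulated data. Alternatives were DESeq2 1.42.0, its scaling, no low-count filter, 10% mitochondrial UMIs, resolution 0.5, each library left out, and lane as a block. The labels call the lanes replicate experiments, which pairs the libraries; deviations of same-lane libraries correlated by -0.03 to 0.31 between groups. The rule for named list genes takes up to 4 called genes per list with the largest change at a mean of at least 20 CPM (2 for age). Names outside it were picked after values were seen. Intervals are exact binomial at 95% and cover counting error only.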

Additional observations from a re-analysis of the deposited data

Results flagged for a closer look

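The difference of the Cyp2b10 LPS change between old and young AE2-like cells was -1.17 ± 0.21 on the log2 scale, and each old within-lane change (0.59 and 1.28) was below each young one (1.99 and 2.25). Cyp2b10 was chosen with its LPS and age values in these cells known, so this value describes the gene and carries no independent support. Without single libraries it was -1.43 to -0.96, and the call was lost without 5 of the 8.

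The difference of the LPS change between AE2-like and ciliated-like cells was 1.81 for Cyp2b10 and 1.53 for Cyp4b1. The AE2-like side of both was known when the genes were chosen. The ciliated-like side, on which the choice did not rest, was -0.47 ± 0.11 for Cyp2b10 and -0.08 ± 0.10 for Cyp4b1.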

How the results depend on the processing

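Counts of list genes called higher and lower, with single libraries left out, spanned 24 to 37 and 26 to 38 for LPS in old mice, 25 to 36 and 19 to 34 for LPS in young mice, 0 to 5 and 0 to 0 for age in control mice, 1 to 15 and 0 to 17 for age after LPS, 0 to 5 and 0 to 9 for the difference by age, 9 to 15 and 15 to 22 for LPS and 1 to 2 and 0 to 2 for age in ciliated-like cells, and 12 to 17 and 13 to 18 for AE2-like minus ciliated-like cells. DESeq2 called 0 higher for age in control mice, 0 higher and 1 lower for age after LPS, 9 higher and 11 lower for LPS and 1 higher for age in ciliated-like cells, 1 higher and 7 lower for LPS in club/secretory-like cells, and 12 lower for AE2-like minus ciliated-like cells. With no low-count filter, 5 were called higher for age in control mice, 12 higher and 6 lower for age after LPS, 3 higher and 2 lower for the difference by age, and 1 lower for age in club/secretory-like cells. The last count was also 1 with DESeq2 scaling, 10% mitochondrial UMIs or the doublet filter, and that filter left 1 lower for age after LPS.

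With lane as a replicate block, 1 list gene was called higher and 1 lower for age in ciliated-like cells, and Aox3 in young mice lost its LPS call (log2 change -1.49, adjusted p = 0.0688 in edgeR). No other call of a member changed under the block. Aox3 also lost that call with no low-count filter (adjusted p = 0.0711 in edgeR) and without each young library or either old control library (adjusted p up to 0.14 in edgeR). Neither the block nor leaving out a library could be fitted in club/secretory-like cells, which had 1 residual degree of freedom. In that class Cyp4b1 after LPS was called lower with no low-count filter and with the doublet filter. Fmo2 was called higher by age (1.07) with the doublet filter. The calls of Fmo2 in AE2-like cells depend on the old LPS libraries and on the test. Without old LPS 1, edgeR called it after LPS in young and old mice and in both age comparisons. Without old LPS 2, edgeR called it after LPS in young mice (1.97), for age in control mice (1.98) and for the difference by age (-1.93). With all libraries, DESeq2 called it after LPS in young mice and for age in control mice. Fmo1 lost its call in young mice in DESeq2 and without young LPS 1 or young control 2, and in old mice without either old control library.

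Where a library is left out, the lone library of its group is assumed to vary like the other groups. Signs changed for some values not called with all libraries. Over single libraries left out, old against young after LPS ran from -0.45 (without old LPS 2) to 0.026 (without old LPS 1) for Cyp2b10 and from -0.64 (without old LPS 2) to 0.41 (without old LPS 1) for Aox3, where edgeR called -0.45, -0.64 and 0.41. Without young LPS 1 the Aox3 value was 0.06. The difference by age ran from -0.91 (without old LPS 2, called) to 0.15 (without old LPS 1) for Aox3. For Fmo1, old against young control ran from -0.78 to 4.93, old against young after LPS from -0.10 to 0.91, and the difference by age from -4.59 to 1.13, with 0.27 and 0.11 also above 0. With the doublet filter, the class difference of Fmo2 was 0.27. The causes were not tested.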
